A study of Mus musculus with 24 samples.

Results

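The genes described here are 6: the sialyltransferases St8sia1, St8sia2, St8sia3, St8sia4 and St8sia5, and Ncam1, the gene of the neural cell adhesion molecule. They were found by symbol among 20893 genes of a mouse cerebellum array series, on 60 probe sets of the 213361 that carry 1 gene symbol. The set was chosen by the array levels of St8sia2, which were high in developing cerebellum and low in tumours. For that reason the levels of St8sia2, and every difference between tumours and developing cerebellum, are given below as description without a test. St8sia2 was tested between the tumour lines alone, a contrast that played no part in the choice.

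The series holds 24 Affymetrix arrays, 1 per sample, in 4 groups. There were 8 cerebellar tumours of hGFAP:GnasCKO mice and 8 of Oligo1:GnasCKO mice, called hGFAP and Oligo1 tumours here, all taken when the animals had reached their endpoint. GnasCKO names a conditional knockout of Gnas, the gene of the stimulatory G protein subunit Gsα, and the title of the series names Sonic Hedgehog medulloblastoma. The normal cerebella were labelled wild type: 3 developing samples, of embryonic days 15 and 18 and postnatal day 0, and 5 adult samples, of postnatal day 60 (2 samples), 95 and 122 and of an unstated adult age, numbered 1 to 5 in this order. All tumours and the postnatal day 60 and unstated adult samples were of a mixed C57BL/6 and 129 background. The developing samples and the other 2 adult samples were C57BL/6, so strain cannot be separated from tissue in tumours against developing cerebellum. Each developing age had 1 array, so the spread and tests of that group mix change with age and spread between replicates. The human GFAP promoter is known to act in neural progenitors and not in astrocytes alone. The labels give neither the cells in which either Cre driver acted nor the ages of the tumour-bearing mice. The tumours are recorded as biological replicates, and for the normal samples nothing states whether they came from separate animals.

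Levels are log2 intensities after robust multi-array averaging (RMA), and 1 unit is a 2-fold change. They compare the same gene between arrays and not different genes with each other. A gene was tested where at least 3 arrays lay above 7.61, the median of all deposited values, which left 10983 genes. Per array, 7903 to 9362 genes lay above that value. Gnas itself was lower in both tumour lines, at 8.16 ± 0.73 in hGFAP tumours (SD, n = 8) and 7.82 ± 0.54 in Oligo1 tumours (n = 8), against 9.79 ± 0.07 in adult cerebellum (n = 5), with limma adjusted p values of 0.000112 and 4.59e-06. The labelled tissues carried their markers, except that hGFAP tumour 5 stood apart. The mean of 8 granule neuron precursor markers, Atoh1 among them, was 7.71 in that tumour and 10.31 to 11.27 in the other 7 hGFAP tumours. It was 10.79 to 11.43 in Oligo1 tumours, 8.89 to 9.91 in developing and 6.58 to 6.83 in adult cerebellum.

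Polysialic acid is a long chain of sialic acid residues built mainly on the neural cell adhesion molecule. Its bulk and charge loosen contacts between cells, and it is known from migrating and immature neurons, also in the cerebellum before it matures. ST8SIA2 and ST8SIA4 are the enzymes that build the chain on this protein. ST8SIA2 is best known from the embryonic and newborn brain, while ST8SIA4 persists longer. The other 3 enzymes add sialic acid to other acceptors: ST8SIA1 makes the ganglioside GD3, ST8SIA5 makes more highly sialylated gangliosides, and ST8SIA3 adds short chains to glycoproteins and glycolipids.

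The promoters of the 2 polysialyltransferase genes are shown because both genes were high in developing cerebellum alone. Each is the stretch of 250 bases before the RefSeq gene start, 5′ to 3′ on the gene's strand, in GRCm38.p6. That of St8sia2 lies on the minus strand at chr7:74013683-74013932, and that of St8sia4 on the minus strand at chr1:95667595-95667844. Capitals mark matches on either strand to the GC box GGGCGG, the CCAAT box CCAAT and TGACG, which opens the cyclic AMP response element.
St8sia2: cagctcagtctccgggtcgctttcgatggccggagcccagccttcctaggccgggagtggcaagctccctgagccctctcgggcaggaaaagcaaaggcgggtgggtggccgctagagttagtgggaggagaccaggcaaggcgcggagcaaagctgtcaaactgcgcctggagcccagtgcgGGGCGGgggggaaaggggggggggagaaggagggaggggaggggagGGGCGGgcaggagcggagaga
St8sia4: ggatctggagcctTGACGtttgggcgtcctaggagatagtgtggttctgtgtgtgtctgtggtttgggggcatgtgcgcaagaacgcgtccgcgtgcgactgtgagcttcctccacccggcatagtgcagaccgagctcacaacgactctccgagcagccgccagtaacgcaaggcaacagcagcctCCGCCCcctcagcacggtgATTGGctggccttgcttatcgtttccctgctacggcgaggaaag

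The St8sia2 window held 2 GC boxes and no match to the other letters searched. The St8sia4 window held 1 GC box, 1 CCAAT box (as its reverse complement) and 1 TGACG, and no match overlapped another. The GLI motif TGGGTGGTC and the E box CAGCTG matched in neither window. Of all 32851 promoter windows of this length, 32.7% held the GC box, 33.8% the CCAAT box, 17.8% TGACG, 0.225% the GLI motif and 13.0% the E box. The St8sia1 window, searched in the same way, held 1 GC box and 1 CCAAT box. The G and C content was 68.8% for St8sia2, 60.4% for St8sia4 and 63.6% for St8sia1, against a median of 52.4% over all windows. These matches describe letters and not bound factors.

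St8sia2 was high in developing cerebellum and low everywhere else. Its level ran from 5.62 to 6.75 in the 8 hGFAP tumours (median 5.99) and from 5.28 to 6.07 in the 8 Oligo1 tumours (median 5.61). In developing cerebellum it stood at 10.57 on embryonic day 15, 10.47 on embryonic day 18 and 10.05 on postnatal day 0, and in adult cerebellum at 5.47, 5.45, 5.47, 5.94 and 6.09. All 21 tumour and adult arrays lay below 7.61, and the highest tumour, hGFAP tumour 3, stayed 3.30 log2 units, or 9.87-fold, under the lowest developing array. The group means were 6.03 ± 0.37 in hGFAP tumours (SD, n = 8), 5.63 ± 0.27 in Oligo1 tumours (n = 8), 10.36 ± 0.27 in developing (n = 3) and 5.69 ± 0.31 in adult cerebellum (n = 5). The tumour and adult groups overlapped in range, and no order is read from their means alone. The difference between the tumour lines is tested below. Near background, differences on an array shrink, so a level below 7.61 does not show how little RNA was present.

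By size, the difference of St8sia2 was -4.34 in hGFAP and -4.73 in Oligo1 tumours against developing cerebellum, the 5th and 4th lowest of 10983 genes. Against adult cerebellum the differences were 0.34 in hGFAP tumours, -0.05 in Oligo1 tumours and 4.68 in developing cerebellum. The comparisons with developing cerebellum share its 3 arrays. St8sia2 was chosen by its levels in developing cerebellum and tumours. Its ranks there, and the probe sets that follow, are therefore description and carry no support of their own. All 6 probe sets of the gene moved alike: their differences between hGFAP tumours and developing cerebellum ran from -4.97 to -3.26, and between Oligo1 tumours and developing cerebellum from -5.72 to -3.17. Between the tumour lines, hGFAP minus Oligo1, the difference was 0.39 (SE 0.15, 95% interval 0.07 to 0.71), which did not pass (limma adjusted p = 0.0685). It passed with array weights (0.46, adjusted p = 0.00629), with the mean of the probe sets (0.44, adjusted p = 0.0335) and without hGFAP tumour 7 (0.45, adjusted p = 0.0363). Over all alternatives it ran from 0.29 to 0.55, with adjusted p values up to 0.239.

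St8sia4 had the same pattern at a smaller size. It ran from 6.54 to 6.87 in hGFAP tumours (median 6.70) and from 6.11 to 7.55 in Oligo1 tumours (median 6.74). In developing cerebellum it stood at 9.73, 9.18 and 8.97 on embryonic days 15 and 18 and postnatal day 0, and in adult cerebellum at 6.69, 6.74, 6.91, 6.87 and 7.51. Every tumour and adult array again lay below every developing array, and only the 3 developing arrays lay above 7.61, so St8sia4, like St8sia2, passed the filter on dim genes through that group alone. A gene that passes in this way had to be higher in developing cerebellum, so its difference there of 2.35 from adult cerebellum, 5.09-fold, is given without a test.

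Group means of St8sia4 were 6.70 ± 0.11 in hGFAP tumours (SD, n = 8), 6.77 ± 0.42 in Oligo1 tumours (n = 8), 9.29 ± 0.39 in developing (n = 3) and 6.94 ± 0.33 in adult cerebellum (n = 5), and the 3 dim groups overlapped. No difference of tumours from adult cerebellum passed. The difference was -0.24 in hGFAP tumours (95% interval -0.61 to 0.13, limma adjusted p = 0.257) and -0.17 in Oligo1 tumours (interval -0.54 to 0.19, adjusted p = 0.39). The tumour lines differed by -0.07 (interval -0.39 to 0.25, adjusted p = 0.756). Against developing cerebellum the differences were -2.59 in hGFAP and -2.52 in Oligo1 tumours, which is 6.03-fold and 5.74-fold lower. A developing group lying above all 21 other arrays was found for 6.23% of the genes tested, and a group of all 16 tumours lying below the developing arrays for 9.36%. Since St8sia2 was chosen for this pattern, nothing is read from the count of members that show it.

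**Figure D1:**
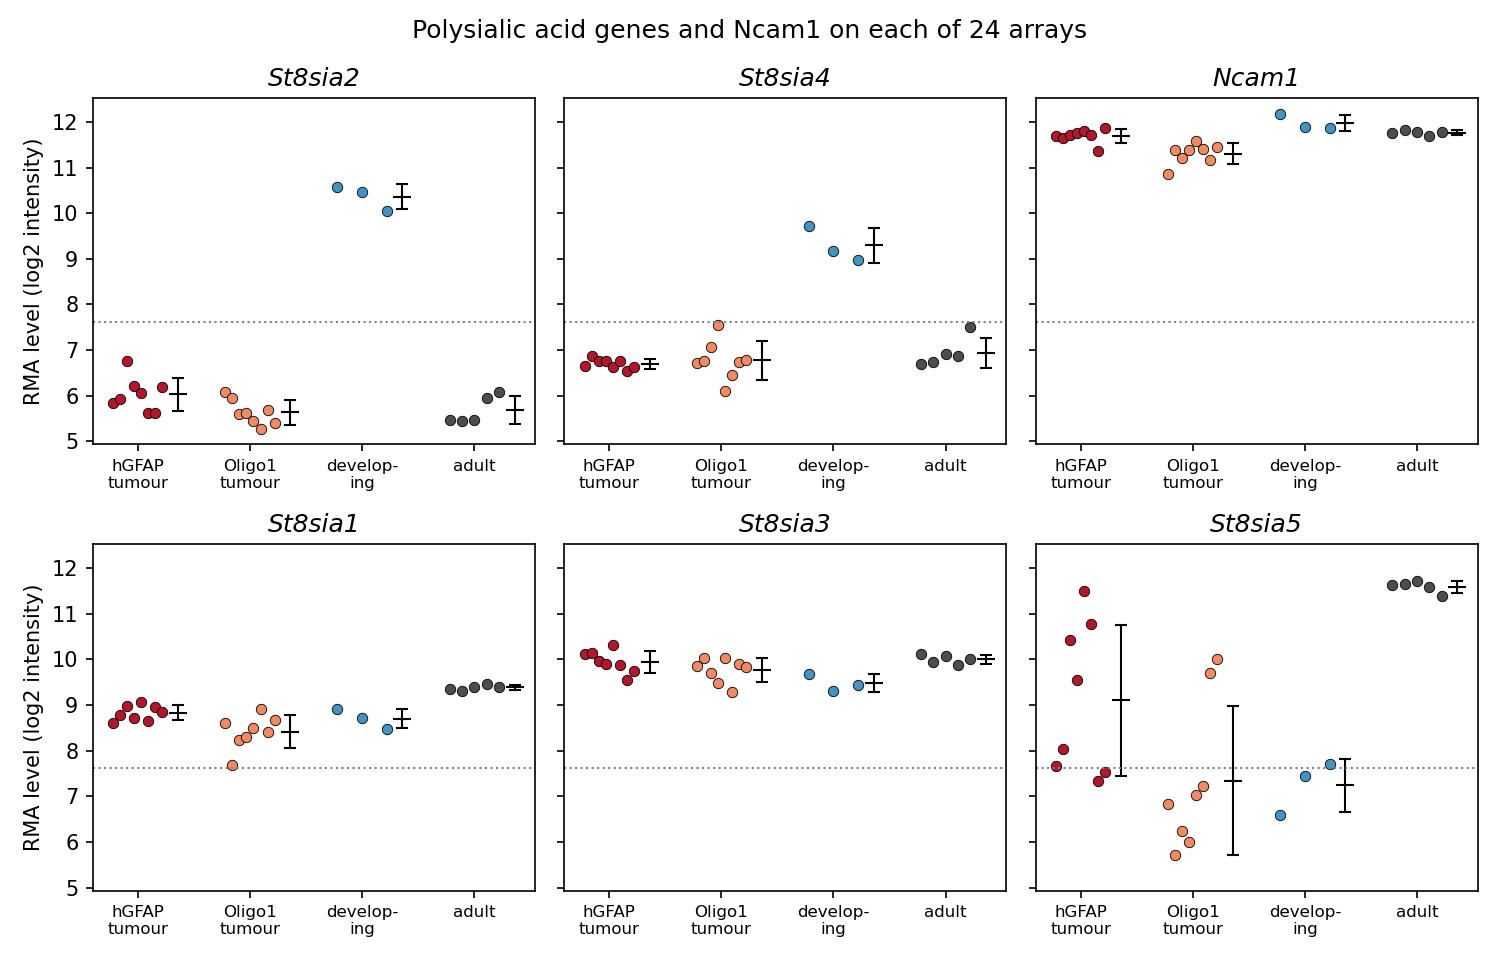
Level of each gene (RMA, log2 intensity) on each of 24 arrays, 1 point per array, in hGFAP tumours, Oligo1 tumours, developing and adult cerebellum; the developing points run from embryonic day 15 to postnatal day 0, bars give mean ± SD, and the dotted line is the median of all deposited values, 7.61. St8sia2 and St8sia4 lie above that line in developing cerebellum alone, Ncam1 is bright on every array, and St8sia5 is spread widely among tumours.

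Taken as a mean, immature neuron markers were not low in tumours. The mean of Dcx, Nhlh1, Sox11, Cntn2, Tubb3 and Neurod1 was 9.33 to 11.42 in hGFAP tumours (median 11.15), 10.30 to 11.28 in Oligo1 tumours (median 10.99), 10.49 to 10.81 in developing and 8.31 to 8.63 in adult cerebellum. The lowest value, 9.33, was that of hGFAP tumour 5. Single markers lay on both sides of developing cerebellum. By group means Dcx, Sox11 and Tubb3 were lower in both tumour lines, and Nhlh1, Cntn2 and Neurod1 higher. Against adult cerebellum, 4 of the 6 markers rose in hGFAP tumours with 0 lower, and 4 rose and 1 fell in Oligo1 tumours. Over all genes 24.2% rose and 29.8% fell in hGFAP tumours, and 35.8% and 34.5% in Oligo1 tumours. Dcx, the doublecortin gene of migrating neurons, averaged 11.10 ± 0.98 in hGFAP tumours (SD, n = 8), 11.18 ± 0.25 in Oligo1 tumours (n = 8), 12.10 ± 0.17 in developing (n = 3) and 7.21 ± 0.17 in adult cerebellum (n = 5). These are bulk samples, in which fewer cells of a type cannot be told apart from less RNA per cell.

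The 5 named genes whose 24 array values, centred on their own mean, lay nearest to those of St8sia2 were Igf2bp2, Stk32b, Scn9a, Fat4 and Fgf15, with root mean square differences of 0.403, 0.443, 0.518, 0.593 and 0.600 log2 units. Igf2bp2 encodes an RNA-binding protein, Stk32b a kinase, Scn9a a sodium channel subunit, Fat4 an atypical cadherin and Fgf15 a fibroblast growth factor. Igf2bp2 averaged 5.29 in hGFAP tumours, 5.21 in Oligo1 tumours, 9.19 in developing and 5.21 in adult cerebellum. Among the other members St8sia4 was nearest, at 0.791 (25th of 10982 genes), and St8sia5 farthest, at 2.90. The measure rests on the step between the 3 developing arrays and the rest. St8sia2 was chosen by its levels in developing cerebellum and tumours. St8sia4 passed the filter on dim genes through the developing arrays alone. The nearest genes and the rank of St8sia4 are therefore description and carry no support of their own.

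Ncam1, which encodes the main carrier of polysialic acid, was bright on all 24 arrays. It ran from 11.37 to 11.86 in hGFAP tumours (median 11.72) and from 10.85 to 11.59 in Oligo1 tumours (median 11.39). In developing cerebellum it stood at 12.18, 11.89 and 11.87 on embryonic days 15 and 18 and postnatal day 0, and in adult cerebellum at 11.75, 11.83, 11.78, 11.70 and 11.77. All 8 Oligo1 tumours lay below every adult array, as did 25.3% of the genes tested, while hGFAP tumours overlapped with adult cerebellum. All 3 developing arrays lay above every adult array, as did 26.1%.

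Ncam1 fell in Oligo1 tumours against adult cerebellum, by 0.46 on the log2 scale (SE 0.10, 1.37-fold, limma adjusted p = 0.000447), a change smaller than 2-fold. Means were 11.70 ± 0.15 in hGFAP tumours (SD, n = 8), 11.31 ± 0.23 in Oligo1 tumours (n = 8), 11.98 ± 0.18 in developing (n = 3) and 11.76 ± 0.05 in adult cerebellum (n = 5). In hGFAP tumours the difference was -0.07 (SE 0.10, 95% interval -0.28 to 0.14) and did not pass (adjusted p = 0.593). Between the tumour lines Ncam1 was higher in hGFAP tumours by 0.39 (SE 0.09, adjusted p = 0.0127). That call ended when only the 16 tumours were fitted (0.39, adjusted p = 0.0523) and with tumours 5 to 8 of each line alone (0.28, adjusted p = 0.239), and held without hGFAP tumour 5 (0.37, adjusted p = 0.0191). Developing minus adult cerebellum was 0.21 (SE 0.13, adjusted p = 0.195), which passed after a further quantile normalization (0.39, adjusted p = 0.0233). Against developing cerebellum, described only, the differences were -0.28 in hGFAP and -0.67 in Oligo1 tumours.

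The 23 Ncam1 probe sets did not move alike. In Oligo1 tumours against adult cerebellum 14 fell, 0 rose and 9 did not pass, where 30.8% of all 136806 probe sets tested fell and 28.8% rose. Of the 23, 10 were higher in hGFAP than in Oligo1 tumours, beside 3.78% of all probe sets. Probe set 10593296 had the largest difference, with 11.49 in Oligo1 tumours and 12.96 in adult cerebellum (-1.47). It and probe sets 10593297, 10593298, 10593302, 10593303 and 10593304 were the 6 with differences below -1, down to -1.47, and the other 17 ran from -0.50 to 0.55. These 6 were singled out after their values were seen and carry no test as a set.

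The same 6 probe sets stood apart from the other 17 in 2 further comparisons with adult cerebellum. In hGFAP tumours they ran from -0.55 to -0.30, against -0.24 to 0.60 for the other 17, and in developing cerebellum from -1.38 to -0.12, against 0.09 to 1.40. The 3 comparisons share the adult arrays, so the 3 patterns are not independent of each other. Against developing cerebellum the sets overlapped in range: the 6 ran from -0.22 to 0.83 and the other 17 from -0.83 to -0.14 in hGFAP tumours, and from -0.91 to -0.09 and -1.18 to -0.48 in Oligo1 tumours. For hGFAP minus Oligo1 tumours, which share the Oligo1 arrays used to pick them, the 6 ran from 0.60 to 0.92 and the other 17 from -0.12 to 0.49. In developing cerebellum 3 of the 23 rose (10593294, 10593295 and 10593300) and 1 fell (10593296, by 1.38), beside 15.7% of all probe sets higher and 17.2% lower. In hGFAP tumours 2 rose, 10593294 by 0.60 and 10593295 by 0.41, and 2 fell (10593297 and 10593302), beside 19.0% and 22.6%. Ncam1 is known to make transmembrane and lipid-anchored forms by alternative splicing. The exon behind each probe set is not given in the sources used here, so no form is named, and the gene-level value averages over probe sets that differ.

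**Figure D2:**
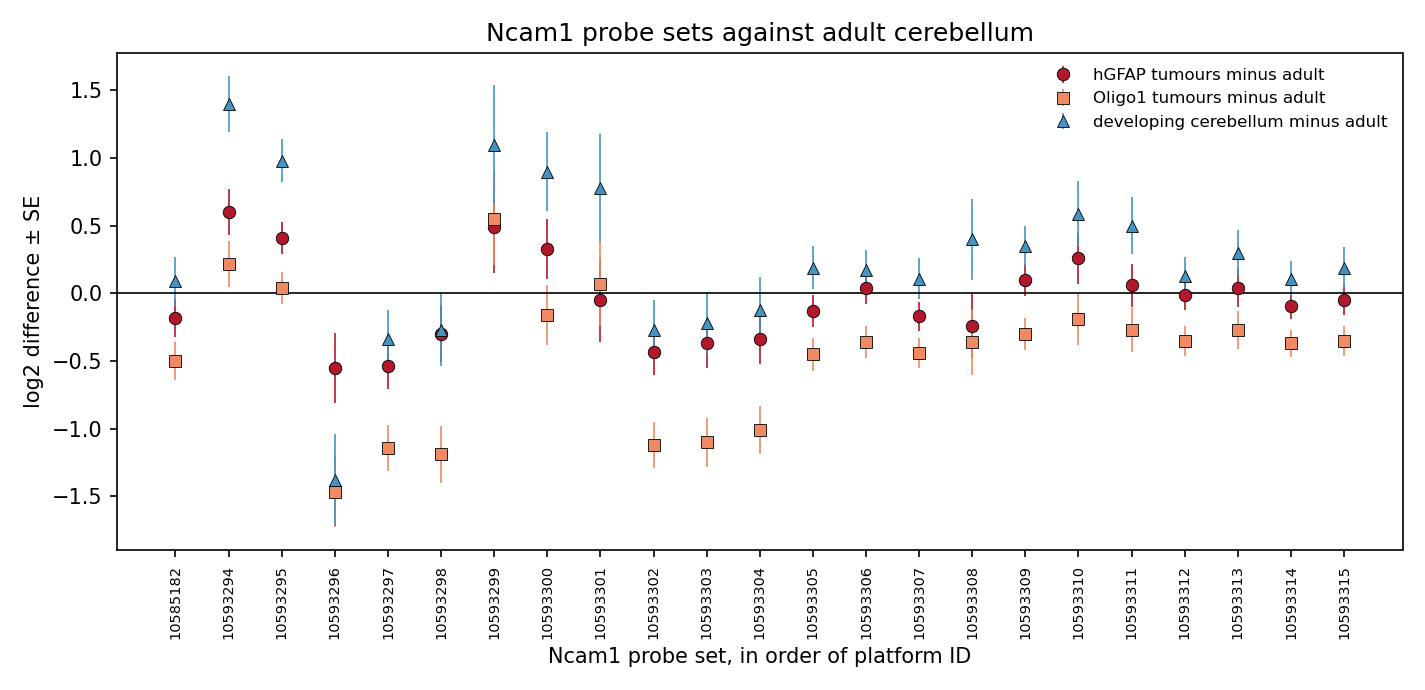
Log2 difference ± SE (limma) of each of 23 Ncam1 probe sets, in order of platform ID, for hGFAP tumours, Oligo1 tumours and developing cerebellum, each minus adult cerebellum. The 6 probe sets with Oligo1 differences from -1.47 to -1.01 lie below 0 in all 3 comparisons, while the other 17 lie above 0 in developing cerebellum.

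St8sia1, the GD3 synthase gene, was lower in all other groups than in adult cerebellum. It ran from 8.61 to 9.07 in hGFAP tumours (median 8.81) and from 7.69 to 8.91 in Oligo1 tumours (median 8.46). It stood at 8.91, 8.72 and 8.48 in developing cerebellum by age, and at 9.35, 9.31, 9.40, 9.47 and 9.40 in adult cerebellum. Every tumour and developing array lay below every adult array. Such a gap was found for 14.1% of genes in hGFAP tumours, 25.3% in Oligo1 tumours and 30.2% in developing cerebellum. The fall against adult cerebellum was -0.56 in hGFAP tumours (SE 0.14, 1.47-fold, limma adjusted p = 0.00211), -0.97 in Oligo1 tumours (SE 0.14, 1.96-fold, adjusted p = 3.42e-06) and -0.69 in developing cerebellum (SE 0.18, adjusted p = 0.00354).

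Without hGFAP tumour 5 the hGFAP difference from adult cerebellum was -0.59 (adjusted p = 0.000997). Tested as probe sets, 5 of 7 St8sia1 probe sets fell in hGFAP tumours and 7 of 7 in Oligo1 tumours, beside 22.6% and 30.8% of all probe sets. Between the tumour lines St8sia1 was higher in hGFAP tumours by 0.41 (SE 0.12, adjusted p = 0.0312), but the groups overlapped. That call ended without any of hGFAP tumours 3, 5 and 6 or Oligo1 tumours 1, 2 and 3, each left out singly, with differences of 0.30 to 0.43 and adjusted p values up to 0.0661. It also ended in the fit of tumours alone (0.41, adjusted p = 0.0845), with tumours 5 to 8 of each line (0.26, adjusted p = 0.271) and with the brightest probe set (0.26, adjusted p = 0.207). Means were 8.83 ± 0.16 in hGFAP tumours (SD, n = 8), 8.42 ± 0.36 in Oligo1 tumours (n = 8), 8.70 ± 0.22 in developing (n = 3) and 9.39 ± 0.06 in adult cerebellum (n = 5), and the first 3 groups overlapped.

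St8sia5, a ganglioside sialyltransferase gene, was the member that varied most. In hGFAP tumours 1 to 8 it stood at 7.67, 8.03, 10.42, 9.56, 11.50, 10.77, 7.33 and 7.54. In Oligo1 tumours 1 to 8 it stood at 6.84, 5.72, 6.24, 6.00, 7.03, 7.23, 9.70 and 10.01. Developing cerebellum had 6.58, 7.44 and 7.70 in order of age, and adult cerebellum 11.64, 11.66, 11.72, 11.58 and 11.38. hGFAP tumours 3 to 6 and Oligo1 tumours 7 and 8 were the high ones, and only hGFAP tumour 5 reached the adult range. Group means were 9.10 ± 1.66 in hGFAP tumours (SD, n = 8), 7.35 ± 1.63 in Oligo1 tumours (n = 8), 7.24 ± 0.59 in developing (n = 3) and 11.60 ± 0.13 in adult cerebellum (n = 5). Developing cerebellum thus lay within the range of the Oligo1 tumours.

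St8sia5 fell by 2.49 in hGFAP tumours against adult cerebellum (SE 0.75, 5.63-fold, limma adjusted p = 0.00765) and by 4.25 in Oligo1 tumours (SE 0.75, 19.0-fold, adjusted p = 3.15e-05). In developing cerebellum it fell by 4.35 (SE 0.96, 20.4-fold, adjusted p = 0.00081). All 10 probe sets of the gene fell in each of these comparisons, beside 22.6%, 30.8% and 17.2% of all probe sets. In Oligo1 tumours 6 of 8 arrays, and in developing cerebellum 2 of 3, lay below 7.61, as did hGFAP tumours 7 and 8 (7.33 and 7.54). That value is the median of all deposited values and not a measured background. Differences on an array shrink near background, so the size of all these folds is uncertain. Without hGFAP tumour 5 the hGFAP difference was -2.84 (adjusted p = 0.00156). The tumour lines differed by 1.76, hGFAP minus Oligo1 (SE 0.65, 95% interval 0.40 to 3.11), which did not pass (adjusted p = 0.0589). It passed with tumours 1 to 4 of each line (2.72, adjusted p = 0.00275) and with array weights (2.13, adjusted p = 0.00232). It also passed when any of hGFAP tumours 1, 2, 7 and 8 or Oligo1 tumours 7 and 8 was left out, with differences of 1.91 to 2.14. Without hGFAP tumour 5 it was 1.41 and did not pass (limma adjusted p = 0.124). Over all alternatives the difference between the lines ran from 0.79 to 2.72, with adjusted p values up to 0.583.

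Markers of several mature cell types moved with St8sia5, as a description over arrays. The mean of the mature granule neuron markers Gabra6, Grm4, Slc17a7, Cbln3, Gabrd, Cbln1 and Etv1 was 8.52, 8.82, 10.85, 9.85, 11.34, 10.66, 8.02 and 8.20 in hGFAP tumours 1 to 8. It was 7.26, 6.62, 7.32, 7.36, 7.77, 7.34, 9.83 and 10.10 in Oligo1 tumours 1 to 8, 6.88 to 7.60 in developing and 11.52 to 11.87 in adult cerebellum. The same 4 hGFAP tumours and the same 2 Oligo1 tumours were highest in both measures, and hGFAP tumour 5 and Oligo1 tumour 8 led their groups in both. All 7 markers fell in both tumour lines and in developing cerebellum against adult. The 7 Purkinje cell markers had means of 6.73 to 10.39 in hGFAP tumours, 5.67 to 9.37 in Oligo1 tumours, 7.23 to 8.11 in developing and 10.85 to 11.14 in adult cerebellum. The mean of the 5 inhibitory interneuron markers was at least 8.47 in hGFAP tumours 3, 5 and 6 and 6.15 to 7.59 in the other 5 hGFAP tumours, and that of the 5 myelin markers was 9.56 and 9.77 in hGFAP tumours 5 and 6, somewhat lower in tumour 3 and 6.35 to 8.78 in the other 5. In Oligo1 tumours 7 and 8 the interneuron mean was 7.64 and 8.12, against 5.62 to 7.19 in Oligo1 tumours 1 to 6, and the myelin mean 8.09 and 7.61, against 5.69 to 7.99. hGFAP tumours 3, 5 and 6 thus led in these lists too, while developing cerebellum, low in St8sia5, had an interneuron mean of 9.33 to 9.72, close to 9.51 to 9.91 in adult cerebellum. The part of any of these cells in the St8sia5 differences was not tested.

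**Figure D3:**
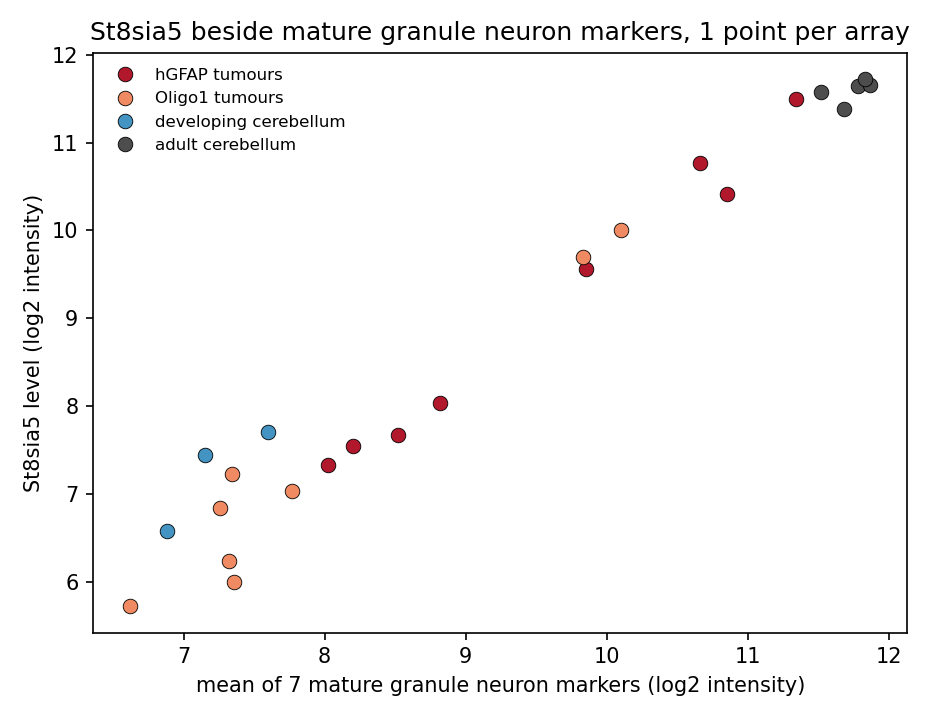
St8sia5 level against the mean of 7 mature granule neuron markers (both RMA, log2 intensity), 1 point for each of 24 arrays, coloured by group. Adult arrays lie at the upper right and developing arrays at the lower left. Tumours spread from the lower left upwards, with hGFAP tumour 5 at 11.50 and 11.34 nearest to the adult arrays. Oligo1 tumours 2, 3 and 4 have St8sia5 levels of 5.72, 6.24 and 6.00, below the lowest developing array at 6.58. Oligo1 tumour 2 also lies below the developing arrays in the marker mean, at 6.62 against 6.88 or more.

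St8sia3, which adds short sialic acid chains, differed little. It ran from 9.55 to 10.31 in hGFAP tumours (median 9.93) and from 9.28 to 10.04 in Oligo1 tumours (median 9.85). It stood at 9.69, 9.31 and 9.45 in developing cerebellum by age, and at 10.11, 9.95, 10.07, 9.87 and 10.02 in adult cerebellum. All 3 developing arrays lay below every adult array, as did 30.2% of the genes tested. Group means were 9.95 ± 0.24 in hGFAP tumours (SD, n = 8), 9.77 ± 0.27 in Oligo1 tumours (n = 8) and 9.48 ± 0.19 in developing cerebellum (n = 3), and neighbours in the order of means overlapped. The difference from adult cerebellum was -0.05 in hGFAP tumours (95% interval -0.32 to 0.22, limma adjusted p = 0.764) and -0.24 in Oligo1 tumours (interval -0.50 to 0.03, adjusted p = 0.109). In developing cerebellum it passed, at -0.52 (SE 0.17, adjusted p = 0.0135). That call ended without the embryonic day 18 array (-0.43, adjusted p = 0.0794) and with strain as a covariate (-0.49, adjusted p = 0.0794). Between the tumour lines the difference was 0.19 (interval -0.05 to 0.42, adjusted p = 0.218). The probe sets of St8sia3 did not all move alike. In Oligo1 tumours against adult cerebellum 1 of 6 tested rose (10456240, 0.66) and 1 fell (10456245, -0.71), beside 28.8% and 30.8% of all probe sets. St8sia6, the remaining gene of the family and not a member, ran from 5.13 to 6.78 over all groups and did not pass the filter on dim genes.

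Counted together, 2 of the 5 members tested fell in hGFAP tumours against adult cerebellum (St8sia1 and St8sia5) and 0 rose, where 54.0% of all genes were called, 24.2% higher and 29.8% lower. In Oligo1 tumours 3 of 5 fell (also Ncam1) and 0 rose, beside 70.2% called, 35.8% higher and 34.5% lower. In developing cerebellum, with St8sia4 left out because the filter fixed its direction, 3 of 4 fell (St8sia1, St8sia3 and St8sia5) and 0 rose, beside 45.7% called, 20.2% higher and 25.5% lower. Between the tumour lines 2 of 6 were called, both higher in hGFAP tumours, beside 18.9% called and 10.4% higher. With so large a share of genes called, none of these counts stands out from the background.

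The genes of the sialic acid supply list, which also holds Npl for its breakdown, differed from each other in direction. For this and the next lists, the shares of all genes to set beside the counts are 24.2% higher and 29.8% lower in hGFAP tumours, 35.8% and 34.5% in Oligo1 tumours, and 20.2% and 25.5% in developing cerebellum, each against adult. Of 6 tested in hGFAP tumours against adult cerebellum 1 rose (Npl), 1 fell and 4 did not pass. In Oligo1 tumours 4 rose, Npl among them, and 2 fell. The median there was 0.40, with Npl included, against 0.04 over all genes. In developing cerebellum 2 rose and 1 fell. The count that rose became 3 in hGFAP tumours without hGFAP tumour 5 and 2 without the first postnatal day 60 sample, and in developing cerebellum it became 0 without embryonic day 15 or postnatal day 95 and 1 without postnatal day 0. Gne, the enzyme that starts sialic acid synthesis, fell in hGFAP tumours (-0.61) and in Oligo1 tumours, with -0.22 in developing cerebellum, which did not pass. Its mean was 8.88 ± 0.20 in hGFAP tumours (SD, n = 8), 8.49 ± 0.27 in Oligo1 tumours (n = 8), 9.28 ± 0.05 in developing (n = 3) and 9.49 ± 0.14 in adult cerebellum (n = 5). The sialic acid synthase gene Nans rose in Oligo1 tumours (1.04) and developing cerebellum (0.87), with 0.57 in hGFAP tumours, which did not pass. Cmas, whose enzyme activates sialic acid, rose in Oligo1 tumours (0.33) and developing cerebellum (0.41), with 0.14 in hGFAP tumours, not passed. Slc35a1, the Golgi carrier of activated sialic acid, rose in Oligo1 tumours (0.46). Npl, which breaks sialic acid down, rose in hGFAP (2.08) and Oligo1 tumours (2.10). The mean of the microglia and macrophage markers was 7.31 to 9.43 in hGFAP and 8.77 to 10.02 in Oligo1 tumours, against 6.77 to 7.46 in adult cerebellum, and 6 of 6 tested markers rose in each tumour line. Their part in the Npl difference was not tested. Of the sialidases Neu1 fell in hGFAP tumours (-0.54), Oligo1 tumours (-0.63) and developing cerebellum (-0.76). Neu4 rose in hGFAP tumours (0.88), had 0.25 in Oligo1 tumours, not passed, and fell in developing cerebellum (-1.11). The rise of Neu4 was lost without any of hGFAP tumours 1, 2, 4 and 7 or adult samples 1, 3 and 4, and the 2 sialidases lower in developing cerebellum became 1 without any of 7 developing or adult arrays, all but the postnatal day 95 sample.

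Of 12 other sialyltransferase genes tested, 2 rose and 6 fell in hGFAP tumours against adult cerebellum, 3 rose and 8 fell in Oligo1 tumours, and 3 rose and 7 fell in developing cerebellum. The 2 that rose in hGFAP tumours became 1 without any of hGFAP tumours 1, 2, 4, 7 and 8 or adult samples 1, 3 and 4. The medians were -0.44, -0.78 and -0.64, against -0.02, 0.04 and -0.05 over all genes. St6gal1, which caps glycoproteins with sialic acid, rose in hGFAP tumours (1.66), Oligo1 tumours (1.70) and developing cerebellum (1.12). St6gal2 was 7.48 ± 0.50 in hGFAP tumours (SD, n = 8), 6.51 ± 0.73 in Oligo1 tumours (n = 8), 10.29 ± 0.12 in developing (n = 3) and 7.31 ± 0.23 in adult cerebellum (n = 5). St6gal2 thus rose in developing cerebellum (2.99), fell in Oligo1 tumours (-0.79) and did not pass in hGFAP tumours (0.18). St6galnac5, a ganglioside sialyltransferase gene, rose in developing cerebellum (2.48) and in hGFAP (0.83) and Oligo1 tumours (1.08). Other genes of the list had lower means in Oligo1 tumours than in adult cerebellum. These were 8.59 and 10.09 for St6galnac6, 8.71 and 10.15 for St3gal2, and 8.21 and 9.56 for St6galnac4.

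The ganglioside list held 10 tested genes, of which 1 rose and 5 fell in hGFAP tumours, 3 rose and 7 fell in Oligo1 tumours, and 1 rose and 6 fell in developing cerebellum. The medians were -0.36, -0.76 and -0.55, against -0.02, 0.04 and -0.05 over all genes. The 1 that rose in hGFAP tumours became 0 without any of hGFAP tumours 1, 2, 4, 6 and 7 or adult samples 1 to 4, and 2 without hGFAP tumour 5. The 1 that rose in developing cerebellum became 0 without embryonic day 18, postnatal day 0 or postnatal day 95. St3gal5, whose enzyme makes GM3, the substrate of ST8SIA1, fell in hGFAP tumours (-0.70), Oligo1 tumours (-0.94) and developing cerebellum (-1.51). B4galnt1, which starts the complex gangliosides, fell in hGFAP (-0.60) and Oligo1 tumours (-0.96), with -0.14 in developing cerebellum, not passed. The genes of this list that rose in Oligo1 tumours, Gla (0.40), Glb1 (0.58) and Hexa (0.59), encode lysosomal enzymes that degrade glycolipids rather than make them. Gm2a, whose product also serves that breakdown, fell instead. Its mean was 10.83 ± 0.30 in Oligo1 tumours (SD, n = 8) and 11.45 ± 0.11 in adult cerebellum (n = 5).

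Of 16 tested carriers of polysialic acid and partners of NCAM, 3 rose and 5 fell in hGFAP tumours, 3 rose and 10 fell in Oligo1 tumours, and 4 rose and 2 fell in developing cerebellum against adult. The 2 that fell in developing cerebellum became 1 without any single developing or adult array, and without hGFAP tumours 1, 2, 3, 4 or 6 or Oligo1 tumours 3, 7 or 8, which share the fit. Nrp2, a semaphorin receptor that can itself carry polysialic acid, rose in hGFAP tumours (0.51), Oligo1 tumours (0.56) and developing cerebellum (1.72). Cadm1, an adhesion molecule that can also carry it, rose in hGFAP (0.47) and Oligo1 tumours (0.70), with 0.27 in developing cerebellum, not passed. Ncam2, the paralogue of Ncam1, fell in Oligo1 tumours (-1.41), with -0.37 in hGFAP tumours and 0.85 in developing cerebellum, neither passed. The adhesion genes L1cam (-1.67), Chl1 (-1.52) and Cntn1 (-1.41) fell in Oligo1 tumours, and of these Chl1 also fell in hGFAP tumours (-0.83). Gfra1, a receptor for glial cell line-derived neurotrophic factor that NCAM can join, rose in hGFAP tumours (0.88), Oligo1 tumours (0.57) and developing cerebellum (1.55). Set against Oligo1 tumours, 7 of 16 were higher in hGFAP tumours and 0 lower, among them Ncam2 (1.04) and Cntn1 (0.88), beside 10.4% of all genes higher. The count became 3 without hGFAP tumour 3 or 6 and 4 without hGFAP tumour 5 or Oligo1 tumour 1 or 3. Over all 42 alternatives it ran from 0 to 11. Astrocyte, myelin and some mature neuron markers moved with this comparison. In hGFAP tumours 6 of 7 astrocyte and Bergmann glia and 4 of 5 myelin markers were higher. So were 3 of 7 Purkinje cell and 3 of 7 mature granule neuron markers, with 0 lower in these lists. Of the other neuron lists, 1 of 5 inhibitory interneuron, 0 of 6 immature neuron and 0 of 8 granule neuron precursor markers were higher, and 0 lower. The mean of the 5 myelin markers was 6.35 to 9.77 in hGFAP and 5.69 to 8.09 in Oligo1 tumours. Their part in the differences of Ncam1 and its partners was not tested.

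**Figure D4:**
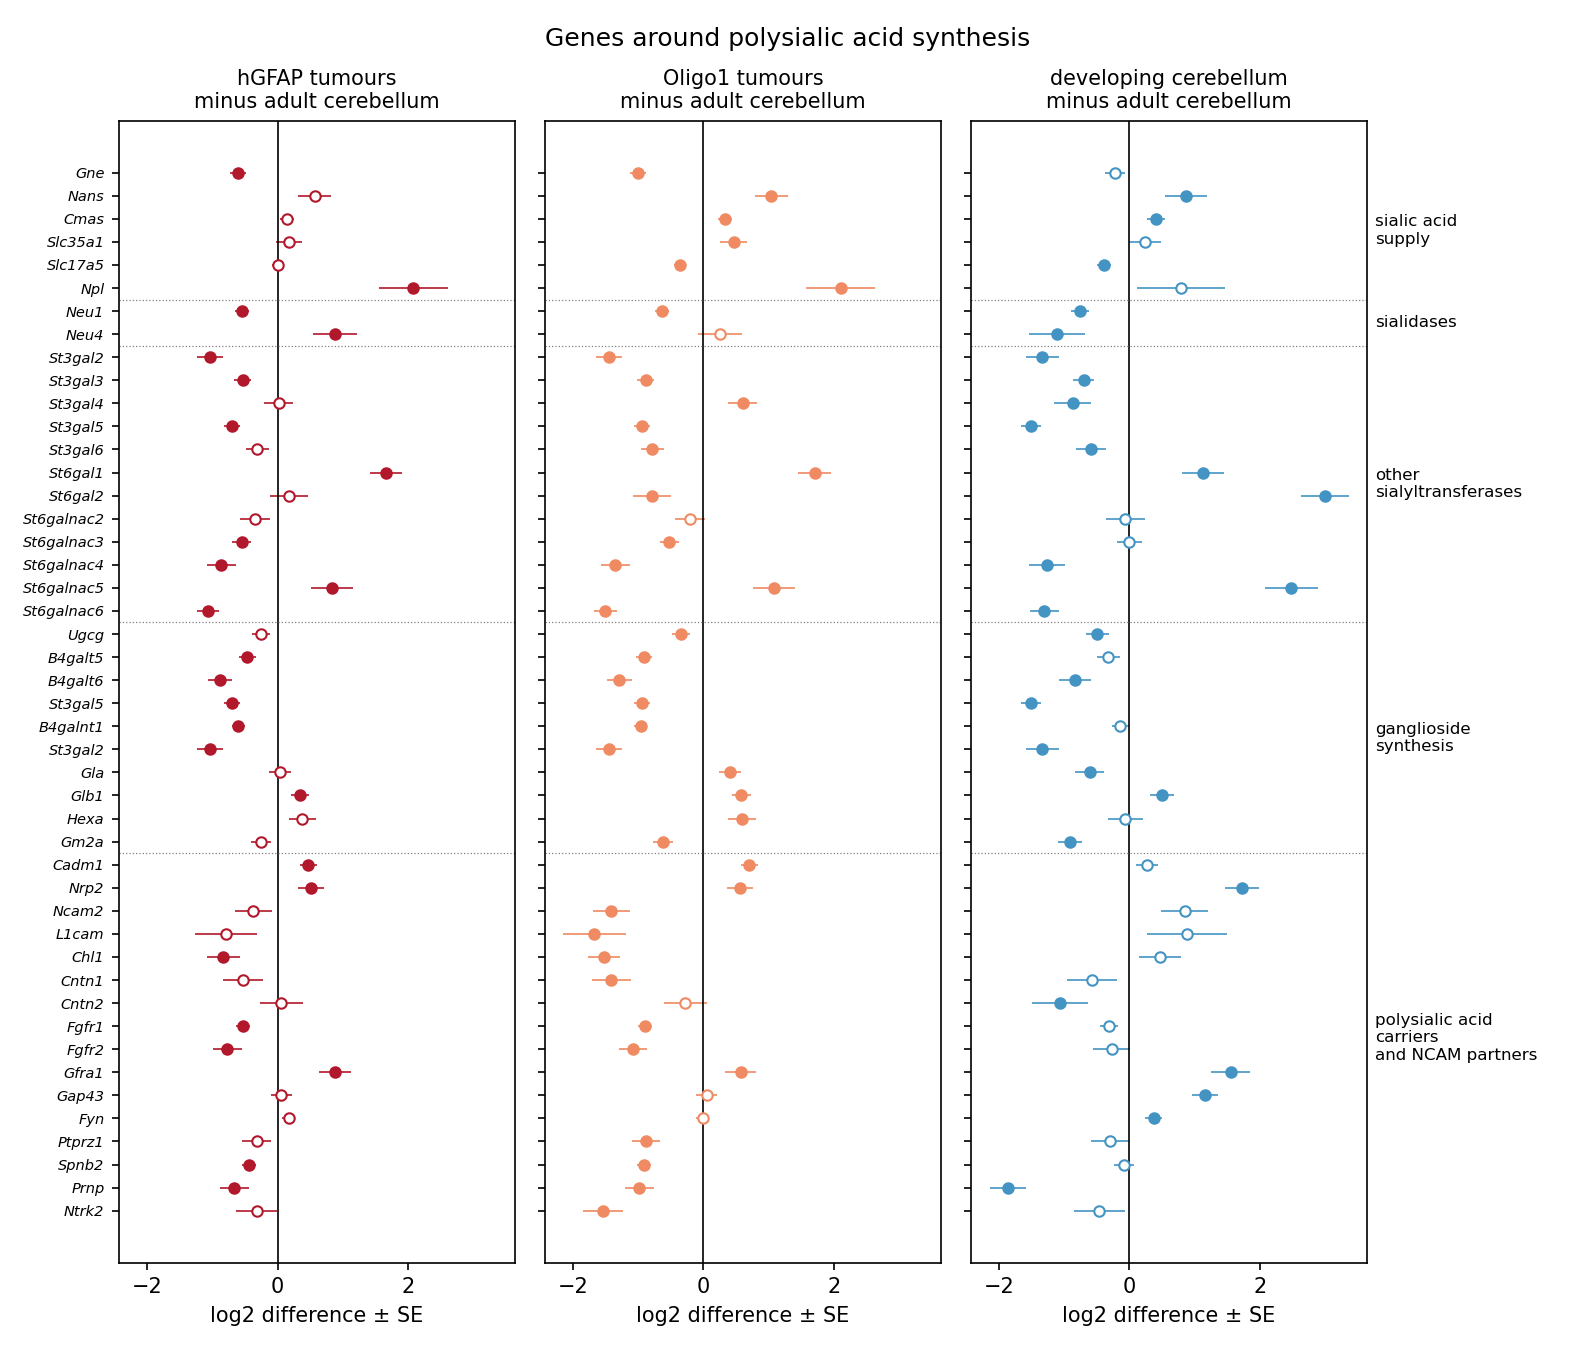
Log2 difference ± SE (limma) of 46 plotted entries in 5 gene lists around polysialic acid synthesis, for hGFAP tumours, Oligo1 tumours and developing cerebellum, each minus adult cerebellum; filled points passed at an adjusted p under 0.05 and open points did not. St6gal2 stands at 2.99 in developing cerebellum, and Npl at 2.08 and 2.10 in hGFAP and Oligo1 tumours.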

How the data were processed

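RNA from 16 tumours and 8 normal cerebella was hybridised to Affymetrix gene arrays with a single label, each sample on its own array. The authors deposited log2 intensities of 241576 probe sets, made by RMA with oligo 1.14 in R 2.15 per the submitters' processing notes. The sources used here do not give the genome build or any masking of probes. Of the probe sets, 213361 had 1 gene symbol in the platform annotation, 5107 had several and 23108 had none, and the last 2 kinds were left out. Probe sets were summarised per gene by median polish, and limma 3.58.1 in R 4.3.3 was fitted to all 24 arrays with 4 groups, with Benjamini-Hochberg adjustment at 0.05 over 10983 genes or 136806 probe sets. Genes had to reach 7.61, the median of the table, on at least 3 arrays. The number of arrays, and not a read depth, limits the precision.

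The members and gene lists were chosen with earlier results of these data known. Named genes were all members, genes of the lists, Gnas, and the 5 genes nearest to St8sia2 by root mean square difference. Promoter sequences came from RefSeq (GRCm38.p6), which matched St8sia1, St8sia2 and St8sia4 among the members. The scripts were tested on simulated data.

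Alternatives changed the summary of probe sets, the filter, the normalization, the variance model, the arrays fitted, array weights, strain as a covariate and a minimum fold, and left out each array in turn. In each line the array names of tumours 1 to 4 are written in another style than those of tumours 5 to 8, and this style was used as a possible batch. The numbers 1 to 8 of the tumours were checked for pairing, and the 8 correlations between same-numbered tumours' deviations ran from -0.50 to 0.59, so the main fit used no block.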

Additional observations from a re-analysis of the deposited data

Results flagged for a closer look

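Among 18 combinations of gene and group of 4 to 10 arrays, 2 had an array far from the rest of its group, where chance gives about 1 in 20. St8sia4 stood at 7.51 in the adult sample of unstated age, and the next adult sample at 6.91. Ncam1 stood at 11.37 in hGFAP tumour 7, and the next hGFAP tumour at 11.65. The tumour lines differed by the limma test in Ncam1, by 0.39 (hGFAP minus Oligo1, adjusted p = 0.0127), and in St8sia1, by 0.41 (adjusted p = 0.0312). hGFAP and Oligo1 tumours overlapped in both genes, and both calls ended in some of the alternatives described next.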

How the results depend on the processing

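Of 435 recomputed values of members' called differences, 412 stayed called, 23 lost the call and 0 changed sign. These include 37 values of St8sia4 in developing against adult cerebellum, whose direction the filter fixed, and all 37 stayed called. Of 403 recomputed values of differences not called, 13 gained the call, and 6 changed sign, in 4 differences near 0. Of 596 recomputed values without a test, 10 changed sign: 3 of St8sia2 in Oligo1 tumours against adult cerebellum (-0.05, up to 0.12) and 7 of St8sia5 in Oligo1 tumours against developing cerebellum (0.10, down to -1.04). The comparison of hGFAP with Oligo1 tumours moved most. Its 2 called members became 1 with the brightest probe set, 4 with array weights, 0 with only the tumours fitted, 0 with the replicate block, 1 with the name style as a block, 0 with tumours 5 to 8 and 0 with a minimum of 2-fold. Leaving out 1 array gave 1 to 4: 1 without hGFAP tumour 3, 5 or 6 or Oligo1 tumour 1, 2 or 3, and 4 without hGFAP tumour 7. Under the replicate block Ncam1 had an adjusted p of 0.0556 and St8sia1 of 0.103. Only 3 of 8 same-numbered pairs correlated above 0.1, with pairs 1 and 2 at 0.59 and 0.53, and 2 of 16 tumours correlated best with their own number. The block was therefore not used in the main fit, but such correlations cannot show that no samples were paired. With a minimum of 2-fold, 1 member was called in hGFAP tumours against adult cerebellum (2 without it), 1 in Oligo1 tumours (3) and 2 in developing cerebellum (4, St8sia4 included). Leaving out 1 array kept 2 calls in hGFAP and 3 in Oligo1 tumours against adult cerebellum, and gave 3 to 4 in developing cerebellum, St8sia4 included. Over its alternatives the adjusted p of St8sia5 ran from 0.000107 to 0.0408 in hGFAP and from 3.96e-08 to 0.00529 in Oligo1 tumours against adult cerebellum, and that of Ncam1 in Oligo1 tumours from 3.27e-06 to 0.0201. St8sia3 in Oligo1 tumours against adult cerebellum passed with array weights (-0.24, adjusted p = 0.0199).

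Over all genes, hGFAP against Oligo1 tumours gave 2076 calls, against 1262 with the brightest probe set, 4335 with array weights, 222 with only the tumours fitted, 181 with the replicate block, 886 with the name style as a block, 7 with tumours 5 to 8, 1377 without hGFAP tumour 5 and Oligo1 tumour 6, 266 with a minimum of 2-fold and 521 to 3174 without 1 array. The stricter filter gave 3398 calls for hGFAP tumours, 4238 for Oligo1 tumours and 2792 for developing cerebellum against adult (5936, 7713 and 5014 in the reported fit). A minimum of 2-fold gave 1943, 3224 and 2199, and array weights gave 7641 for developing cerebellum. Of 1600 recomputed list counts 1368 stayed within 1.5 times. The causes were not tested. St8sia4 gave no value under the stricter filter, which it did not pass.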
